A study of Mus musculus with 14 samples.

Results

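The miR-22 knockout was compared with the wild type in heart and in muscle, at the level of single poly(A) sites. The comparison used 4 libraries, 1 each of wild-type heart, knockout heart, wild-type muscle and knockout muscle. Intervals of the same strand that overlapped or touched in these libraries were merged into 89142 poly(A) sites, against 159969 sites merged over all 14 libraries of the series. The mice carried the genetic background 129S5/SvEvBrd. The knockout animals carried the miR-22 deletion allele that the labels credit to Gurha and colleagues, and the label of each sample names no other allele or agent. The labels do not say which muscle was taken, and give no age or sex, no number of animals in a library, and no record of which tissues came from 1 mouse. Each library was made from 75 μg of RNA by 3P-seq, a method that captures the 3′ ends of polyadenylated RNA so that tags mark the place of cleavage and their number the amount of RNA ending there.

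A microRNA guides an Argonaute protein to messenger RNAs that pair with its seed, and the paired messages are degraded or translated less. miR-22 is plentiful in heart and skeletal muscle, and mice without it have been studied for how the heart responds to load. Many genes have several poly(A) sites, and the choice among them sets whether a message carries the microRNA sites that lie between them. The sequences missing from the knockout are shown because they define the comparison, with the seed (bases 2 to 8) in capitals in the mature forms and both mature arms in capitals in the hairpin.
mmu-miR-22-3p: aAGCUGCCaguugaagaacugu
mmu-miR-22-5p: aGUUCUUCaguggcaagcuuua
Mir22 hairpin: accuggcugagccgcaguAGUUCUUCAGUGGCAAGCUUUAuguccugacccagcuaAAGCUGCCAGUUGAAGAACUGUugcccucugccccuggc
All are RefSeq sequences, 5′ to 3′, from the plus strand of mouse chromosome 11 in GRCm38.p6. None of the other mature mouse miRNAs among the 1738 in the RefSeq table shared either seed. In RefSeq the hairpin lies in the long noncoding host gene Mir22hg, between Wdr81 and Tlcd2.

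The 4 libraries held between 2323440 and 4065757 tags. Sites with tags numbered 55651 in wild-type heart, 60416 in knockout heart, 46817 in wild-type muscle and 39916 in knockout muscle. The 23744 sites seen in all 4 libraries held 93.0% of the tags, while the 33737 sites seen in a single library held 0.329%. Heart and muscle shared 42294 sites, 33270 were seen in heart alone and 13578 in muscle alone. Nuclear sites are named by chromosome and position in build mm9, because no annotation of that build was used here; the targeted locus, the tissues' defining markers and known miR-22 targets could therefore not be checked by gene name. Positions can differ by 1 nt from a browser's, since the offset of 1 in the track lines was not applied.

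Across both tissues, 12 of 12612 tested sites were higher in the knockout (0.0951%) and 0 were lower (0%), by edgeR's quasi-likelihood test with a term for tissue and Benjamini-Hochberg adjusted p under 0.05. The unadjusted p was under 0.05 at 616 sites (4.88%), and DESeq2 called 4 higher and 0 lower. Scaling by total tags in place of TMM gave 23 higher and 0 lower, and moved the median log2 ratio of all sites by 0.26 in heart and 0.20 in muscle. With 1 library per tissue and genotype, the p-values rest on the trend over sites in how far the genotype difference varied between the tissues. A site's own disagreement between the tissues did not enter, nor did variation between animals, so a call can rest on 1 tissue alone. The tissue was RNA in bulk, so fewer cells of a type and less RNA per cell cannot be told apart.

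A pair of neighbouring sites on the plus strand of chromosome 11, 4221 nt apart, was among the strongest calls. Their stretch, and that of the chromosome 1 call below, were known from earlier results of these data. The Mir22 hairpin lies on the same chromosome and strand. Without an mm9 annotation, whether these sites lie at the deleted locus was not checked. Levels are given as CPM, the tags at a site scaled to a common library size by TMM over the 4 libraries. At chr11:75284322-75284410 the level was 10.8 CPM in wild-type heart, 132 in knockout heart, 4.88 in wild-type muscle and 319 in knockout muscle. The knockout exceeded the wild type 12.3-fold in heart (95% counting interval 8.75 to 17.7) and 65.4-fold in muscle, and the edgeR log2 difference over both was 4.76 ± 0.69 (SE), adjusted p = 5.15e-08. At chr11:75280118-75280192 the level was 5.39 CPM in wild-type heart, 130 in knockout heart, 8.54 in wild-type muscle and 63.9 in knockout muscle. Here the heart showed the larger ratio, 24.2-fold against 7.48-fold in muscle, and the edgeR log2 difference was 3.73 ± 0.66 (SE), adjusted p = 7.89e-05. Both knockout libraries lay above both wild-type libraries at each of these sites. Counting intervals cover the sampling of tags only.

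The third of these strongest calls lay on chromosome 1. At chr1:162968635-162968667 (plus strand) the level was 1.80 CPM in wild-type heart, 46.6 in knockout heart, 1.22 in wild-type muscle and 54.7 in knockout muscle. The edgeR log2 difference was 5.03 ± 0.73 (SE), adjusted p = 5.15e-08. The wild-type libraries held only 6 tags in heart and 4 in muscle, against 204 and 118 in the knockout libraries. The nearest plus-strand sites upstream did not share this pattern. The site at chr1:162968229-162968290 held 27 tags in wild-type heart, 67 in knockout heart, 3 in wild-type muscle and 0 in knockout muscle. The site at chr1:162967508-162967584 held 15, 9, 5 and 0 tags in the same order.

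One more site was both called and above 20 CPM on average in each tissue. At chr10:59412417-59412448 (minus strand) the level was 16.5 CPM in wild-type heart, 167 in knockout heart, 8.24 in wild-type muscle and 38.4 in knockout muscle. The edgeR log2 difference was 2.81 ± 0.63 (SE), adjusted p = 0.0160. The call was lost without a filter on low counts (edgeR adjusted p = 0.142). Leaving out either heart library from the 12-library fit leaves muscle alone, 1 library against 1, because the tissue term absorbs the other heart library. The log2 difference was then 2.17, and it was 3.27 from heart alone when either muscle library was left out. These 4 sites were also the 4 calls that were higher in the knockout in all 4 other tissues of the series. Those were liver, lung, white fat and kidney, and an excess of any size was counted. The share of all tested sites that do so is not given. On the scale of the 12 tissue libraries, the chromosome 1 site was at 0.274 CPM in wild-type liver and 136 in knockout liver. In kidney it was at 0.237 CPM in the wild type and 38.6 in the knockout. At the chromosome 10 site the excess was slight in white fat, with 38.54 CPM in the wild type and 40.01 in the knockout. Kidney there stood at 29.3 and 38.9 CPM, liver at 6.85 and 22.7 and lung at 35.1 and 89.9, wild type before knockout. At the chromosome 11 site at 75284322 the liver was already at 145 CPM in the wild type and at 218 in the knockout, the smallest fold among the 6 tissues. At these 4 sites the genotype difference in heart and muscle was not shown to differ from that in the other 4 tissues, with edgeR adjusted p of the difference from 0.565 to 1.

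The call at chr11:67010982-67011013 (plus strand) rested on muscle alone. It held 0 tags in both heart libraries, which allows no more than 3 tags in each, and stood at 33.9 CPM in wild-type muscle and 1099 in knockout muscle. The muscle ratio was 32.5-fold (95% counting interval 26.8 to 39.6), and the edgeR log2 difference was 4.97 ± 0.92 (SE), adjusted p = 0.000247. DESeq2 gave it an adjusted p of 1. The site had 2.19 CPM in wild-type and 2.06 in knockout white fat, on the scale of the 12 libraries, and at most 0.104 in liver, lung or kidney.

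The 7 remaining calls were rare sites whose excess was larger in heart, except on chromosome 4. At chr16:57624371-57624410 (minus strand) the level was 3.59 CPM in wild-type heart, 42.9 in knockout heart, 1.22 in wild-type muscle and 4.17 in knockout muscle. The muscle values there stand for 4 and 9 tags, and the muscle ratio of 3.42 had a counting interval of 0.953 to 15.2. At chr17:10399620-10399653 (minus strand) the level was 2.39 CPM in wild-type heart, 27.2 in knockout heart, 2.44 in wild-type muscle and 7.87 in knockout muscle. At chr12:57474446-57474474 (minus strand) it was 1.80, 28.3, 1.22 and 4.17 CPM in the same order. The chromosome 4 site at chr4:142831524-142831548 (minus strand) stood at 1.20 and 7.54 CPM in heart and at 0.610 and 6.02 in muscle. The other 3 lay at chr1:74333997-74334031, chr1:87606538-87606569 and chr9:53701620-53701650, all on the plus strand. Adjusted p of these 7 calls ranged from 0.00584 to 0.0329 (edgeR), and none of them was called by DESeq2. All 7 also lost their call in the edgeR fit of the 12 tissue libraries, with adjusted p from 0.0584 to 0.704. Without a filter on low counts their edgeR adjusted p ranged from 0.128 to 0.315.

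**Figure D1:**
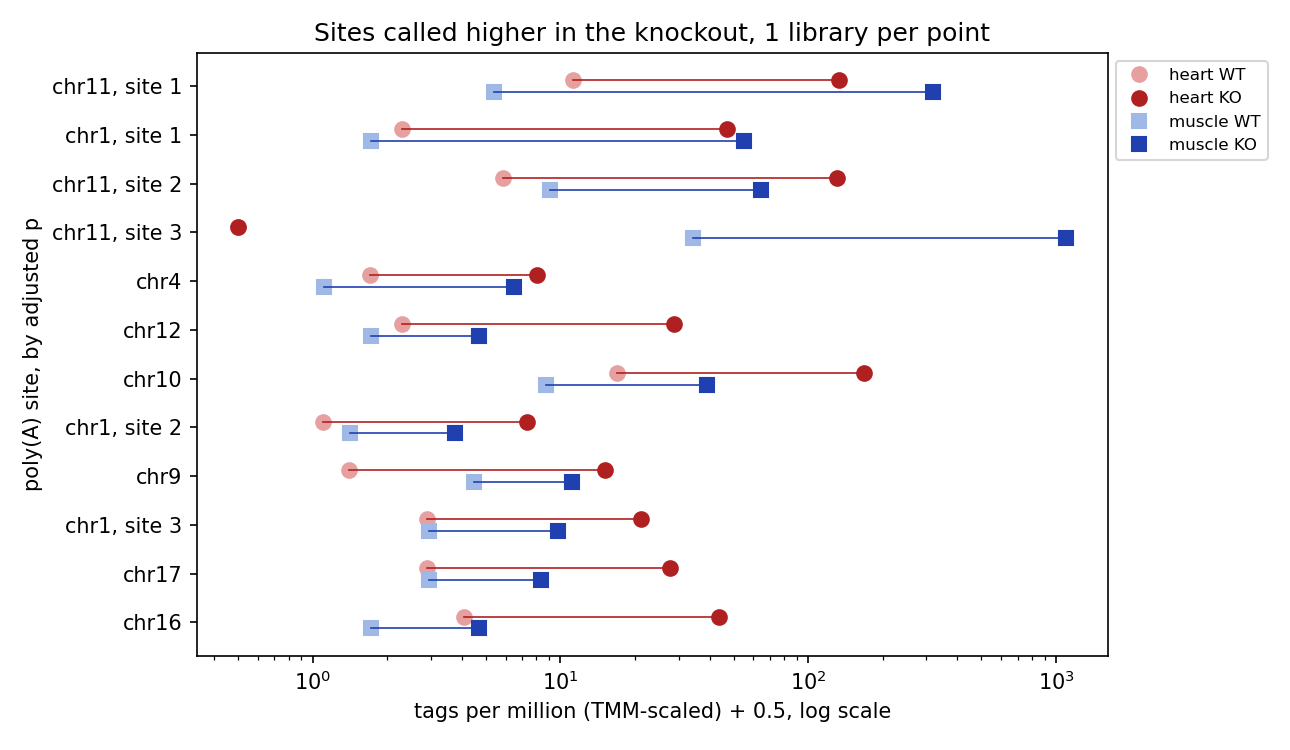
Level of the 12 sites called higher in the knockout, in CPM plus 0.5 on a log axis; circles are heart and squares muscle, pale for wild type and dark for knockout, 1 library per point, with sites of a chromosome numbered by adjusted p. The knockout point lies to the right of the wild-type point in every row, except in heart at site 3 of chromosome 11, where both heart libraries held 0 tags.

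No site passed the test in the lower direction. The smallest p belonged to chr11:32184325-32184363 (plus strand), at 56.0 CPM in wild-type heart, 5.48 in knockout heart, 1.53 in wild-type muscle and 0.463 in knockout muscle. Its edgeR adjusted p was 0.0846, and the muscle levels stood for 5 tags and 1 tag. At chr10:80661937-80661968 (minus strand) it was muscle that held the difference, with 647 CPM in the wild type and 40.8 in the knockout. Heart there stood at 32.6 CPM in the wild type and 17.8 in the knockout, and the edgeR adjusted p was 0.129. At chr10:21864105-21864139 (minus strand) muscle stood at 203 CPM in the wild type and 9.26 in the knockout, while heart stood at 3.89 and 3.20; the edgeR adjusted p was 0.183.

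Within a tissue, 1 library was set against 1 with no test, and a site was counted as apart at 2-fold with a mean of at least 20 CPM and 0.5 CPM added to each level. In heart, 281 of 2977 sites were at least 2-fold higher in the knockout (9.44%) and 337 were lower (11.3%). In muscle, 114 of 2863 were higher (3.98%) and 365 lower (12.7%). Total-count scaling turned the balance in heart, with 487 higher and 166 lower, and gave 149 higher and 187 lower in muscle.

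The 2066 sites that reached 20 CPM in both tissues allow the tissues to be set side by side. Of these, 11 were 2-fold higher in the knockout in both (0.532%) and 17 were lower in both (0.823%). Of the 182 higher in heart, 6.04% were also higher in muscle, beside 3.97% of all 2066 sites. Of the 222 lower in heart, 7.66% were also lower in muscle, beside 12.1% of all sites. Opposite moves were more numerous than shared ones: 43 sites were higher in heart and lower in muscle (2.08%), and 19 were lower in heart and higher in muscle (0.920%). Across these sites the log2 ratios of the tissues had a Pearson correlation of -0.11 and a Spearman correlation of -0.17, and 46.0% had the same sign. The sites of a library share its depth and scaling, so this describes 4 libraries and no p is given. Among the 15 pairs of the series' 6 tissues, over sites at 20 CPM in both on the scale of the 12 libraries, heart and muscle had the third lowest Pearson correlation (-0.11), where heart and white fat had -0.33 and white fat and kidney 0.38.

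**Figure D2:**
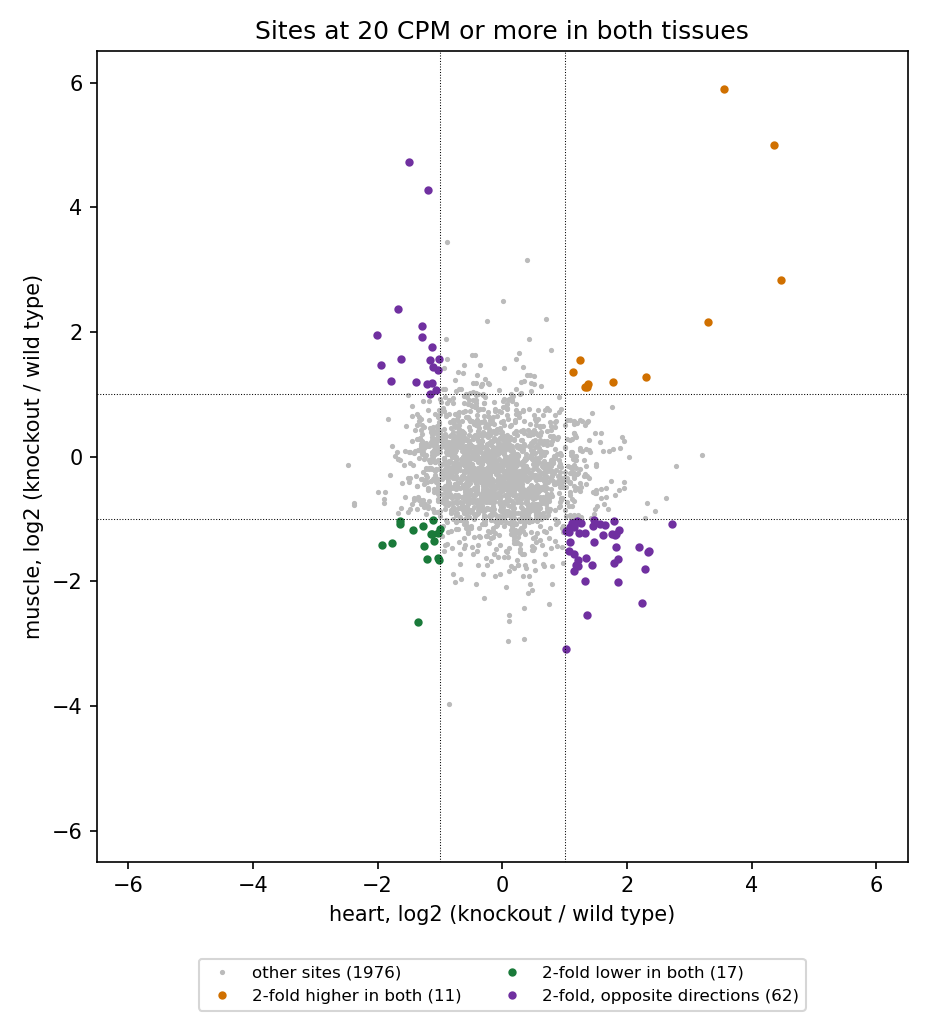
Log2 ratio of knockout to wild type in heart (horizontal) and muscle (vertical) for the 2066 sites at 20 CPM or more in both; dotted lines mark 2-fold. The 11 sites higher in both and 17 lower in both are fewer than the 62 sites with opposite ratios, and the 3 points farthest to the upper right are the sites on chromosomes 1 and 11.

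Besides the 4 called sites, 7 of the 11 sites higher in both tissues were nearer to 2-fold in the tissue with the smaller ratio. In heart the first of those named here was 5.03-fold higher in the knockout. At chr16:15888528-15888558 (plus strand) the level was 33.8 CPM in wild-type heart, 170 in knockout heart, 33.9 in wild-type muscle and 82.9 in knockout muscle. At chr9:48459884-48459934 (minus strand) it was 23.6, 56.6, 38.7 and 114 CPM in that order, and the knockout was also higher in the other 4 tissues. At chr5:7276824-7276896 (plus strand) it was 65.2, 224, 164 and 375 CPM. The edgeR adjusted p of these 3 was 0.385, 0.806 and 0.615, so their shared direction did not pass the test.

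None of the sites lower in both tissues was called. At chr4:117346850-117346904 (plus strand) the level was 243 CPM in wild-type heart, 63.7 in knockout heart, 187 in wild-type muscle and 69.9 in knockout muscle. At chr14:66600328-66600378 (plus strand) it was 758, 222, 90.3 and 34.3 CPM in that order. At chr17:48570751-48570801 (minus strand) it was 185, 71.9, 245 and 38.4 CPM. Both knockout libraries lay under their own tissue's wild type at each of these, and the knockout was 2.57-fold to 3.81-fold lower in heart. The edgeR adjusted p was 0.463, 0.554 and 0.223. Under total-count scaling 4 of the sites at 20 CPM in both tissues were 2-fold lower in both.

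Sites that were 2-fold apart in one tissue and differed by under 0.32 on the log2 scale in the other are described next. There were 51 such sites higher in heart (2.47%), 89 lower in heart (4.31%), 14 higher in muscle (0.678%) and 83 lower in muscle (4.02%). Of the sites 2-fold higher and lower in heart, 28.0% and 40.1% were this near in muscle, beside 37.2% of all 2066 sites. Of those 2-fold higher and lower in muscle, 17.1% and 33.3% were this near in heart, beside 31.4% of all sites. The largest heart excess was at chr6:11288032-11288062 (minus strand), with 9.87 CPM in wild-type heart and 95.2 in knockout heart, beside 99.5 and 101 in muscle. At chr3:90342703-90342747 (minus strand) heart stood at 24.5 and 171 CPM and muscle at 22.6 and 20.4. The knockout heart stood close to both muscle libraries at the first site and above them at the second. At the heart site of most tags among those lower, chr19:4007500-4007561 (minus strand), the level was 3486 CPM in wild-type heart and 1051 in knockout heart, beside 896 and 897 in muscle. At chr4:140563210-140563243 (plus strand) heart stood at 54.5 and 9.36 CPM and muscle at 27.2 and 24.5.

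In muscle the largest excess of this kind was at chr7:119735131-119735195 (plus strand), with 7.02 CPM in wild-type muscle and 41.7 in knockout muscle, beside 71.8 and 72.2 in heart. At chr6:24555578-24555663 (plus strand) muscle stood at 8.54 and 40.3 CPM and heart at 210 and 177. The largest deficit was at chr10:39969313-39969388 (minus strand), with 75.4 CPM in wild-type and 9.26 in knockout muscle, beside 56.0 and 59.4 in heart. At chr8:89240497-89240532 (plus strand) muscle stood at 63.1 and 9.73 CPM and heart at 26.3 and 28.3. The difference between the tissues' genotype effects, tested by edgeR in the 12 tissue libraries, passed at none of the 24 sites named by the rule for a single tissue (lowest adjusted p = 0.751). These sites are therefore not shown to differ between heart and muscle.

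The sites with the largest opposite ratios differed between genotypes about as much in each tissue. At chr14:60921175-60921206 (plus strand) the level was 8.98 CPM in wild-type heart, 44.1 in knockout heart, 82.7 in wild-type muscle and 15.8 in knockout muscle. At chr19:44590386-44590434 (minus strand) it was 41.0, 9.82, 24.1 and 94.5 CPM in that order. At both sites the tissue with the higher level in the wild type had the lower level in the knockout. The edgeR adjusted p of the difference was 0.074 at the first and 0.255 at the second.

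That difference test called 4 of 23909 sites (0.0167%), 1 with the more positive effect in heart and 3 with the more positive effect in muscle; the unadjusted p was under 0.05 at 906 sites (3.79%). DESeq2 called 40 and 15, and of the 4 edgeR calls only the one on chromosome 7 was among them. Heart and muscle had a term each and 1 library per genotype, so neither tissue gave any spread of its own. The error rests on the other 4 tissues (3 residual degrees of freedom) and on the trend over sites, and an ordinary difference between single heart or muscle libraries would enter these values in full. At 2 of the calls, the most abundant nuclear sites of the heart were lower in knockout heart while their traces in muscle were higher. At chr9:110672137-110672332 (plus strand) heart held 125419 tags in the wild type and 58352 in the knockout, and muscle held 11 and 218. The log2 difference between the tissues was -6.39 ± 1.08 (SE), edgeR adjusted p = 0.00135, beside 0.586 by DESeq2. At chr5:122556648-122556960 (plus strand) heart held 189626 and 108576 tags and muscle 9 and 134, with a log2 difference of -5.68 ± 1.16 (SE) and an edgeR adjusted p of 0.0262. This call was lost with DESeq2 (adjusted p = 0.637), with total-count scaling (0.0952) and without a filter on low counts (0.127). The heart tags outnumber those of muscle by far at both. They also do at chr14:55560742-55560827 (minus strand), another of the most abundant heart sites. It held 67976 tags in wild-type and 43902 in knockout heart, but 2 in wild-type and 3 in knockout muscle. The rest of the most abundant heart sites held 4367 tags or more in wild-type muscle. Whether heart RNA in the knockout muscle library has a part in the 2 calls was not tested.

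The other 2 calls were of low or moderate abundance. At chr5:136365404-136365437 (plus strand) heart held 34 tags in the wild type and 3 in the knockout, and muscle held 3 and 19; the log2 difference was -7.08 ± 1.33 (SE), edgeR adjusted p = 0.00792, beside 0.0682 without a filter and none given by DESeq2. At chr7:119259536-119259574 (minus strand) heart held 9 and 86 tags and muscle 1283 and 167, with a log2 difference of 5.20 ± 1.06 (SE) and an edgeR adjusted p of 0.0262. The adjusted p was 5.13e-07 by DESeq2 and 0.0603 in edgeR without a filter. Here muscle was far above heart in the wild type, and the knockout libraries stood at 28.3 CPM in heart and 109 in muscle on the scale of the 12 libraries.

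Whether heart and muscle together differed from the other 4 tissues was tested in the same 12 libraries. A single site was called (0.00418%), and the unadjusted p was under 0.05 at 703 sites (2.94%). At chr8:72709455-72709490 (minus strand) heart held 42 tags in the wild type and 22 in the knockout and muscle held 1 and 2. Kidney held 5 and 46 tags and white fat 1 and 38, so the call came from an excess in the other tissues. The log2 difference was -4.76 ± 0.87 (SE), edgeR adjusted p = 0.0155. It was -2.30 when either heart library was left out, which sets muscle alone against the other tissues.

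The most abundant sites of the heart were lower in the knockout as a group. The 8 nuclear sites of most tags in heart made up 24.6% of nuclear tags in wild-type heart and 16.3% in knockout heart. The 8 of muscle made up 37.5% in wild-type muscle and 35.9% in knockout muscle. The site at chr5:122556648-122556960 took 7.29% of nuclear tags in wild-type heart and 4.30% in the knockout. The one at chr9:110672137-110672332 took 4.82% and 2.31%. Among heart sites at 1000 CPM or more, 20.7% of 87 were 2-fold lower and 1.15% higher, beside 10.7% lower and 12.4% higher among the 1493 at 20 to 50 CPM. In muscle, 2.27% of the 88 most abundant were 2-fold lower and 1.14% higher. The site at chr9:66875676-66875959 (minus strand) was among the top sites of both tissues, and it took 3.89% and 3.00% of nuclear tags in heart and 8.39% and 5.21% in muscle, wild type before knockout. The shares are parts of a whole, so a lower share of these sites means a higher share of others in the same library.

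**Figure D3:**
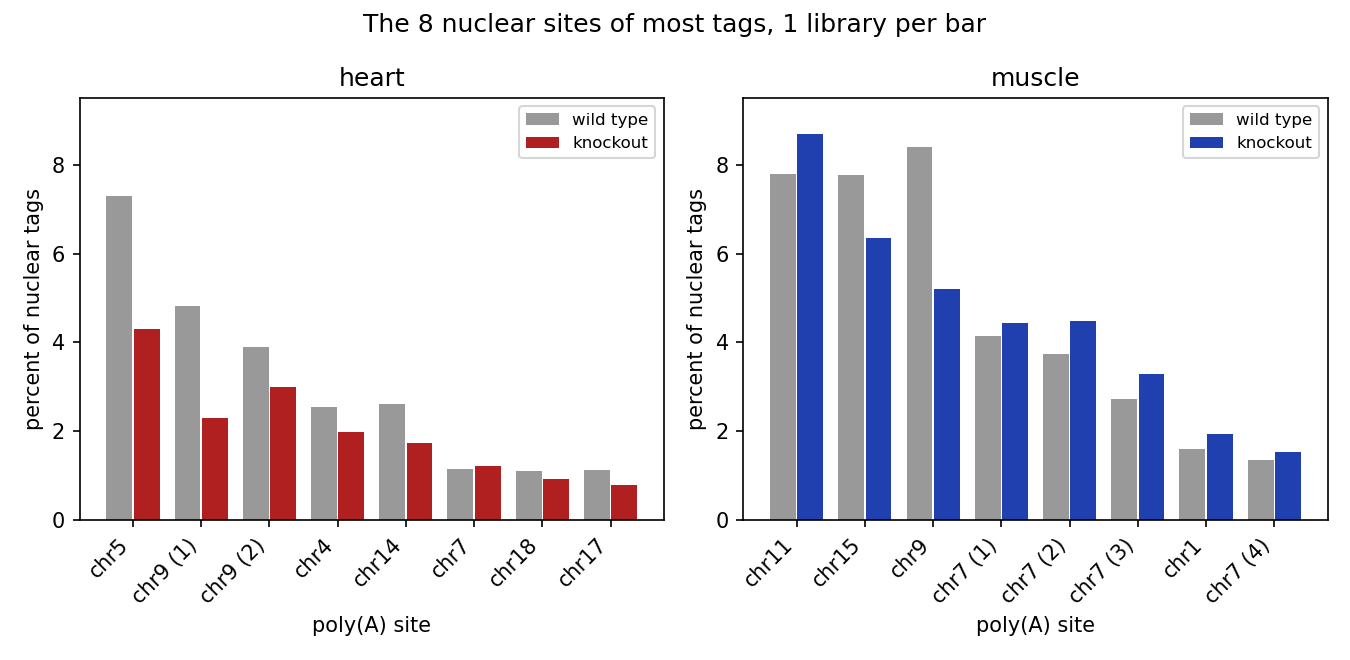
Percent of nuclear tags taken by the 8 nuclear sites of most tags in heart (left) and muscle (right), grey for wild type and coloured for knockout, 1 library per bar and bars from 0; sites of a chromosome are numbered by tags. In heart 7 of the 8 knockout bars are lower, from 7.29% to 4.30% at the first site, and in muscle 6 of the 8 are higher.

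Sites that set a tissue apart were followed in the other tissue, using lists made from these libraries after their values were known: a site was listed where its mean level in the named tissue was at least 50 CPM, with both libraries above those of the tissue it was followed in and 10-fold above all libraries of the remaining 4 tissues. In muscle, 34 of the 40 white-fat sites with at least 10 tags were higher in the knockout, with a median log2 ratio of 0.62 beside -0.07 over all sites. Their summed level, on the scale of the 12 libraries, was 2966 CPM in wild-type and 5035 in knockout muscle. That is 85.0% of the list, beside 45.6% of all 13586 sites with as many tags. Of the 59 heart sites measured in muscle, 37 were higher in the knockout (62.7%; median log2 ratio 0.19). The white-fat sites went the other way in heart, where 12 of 33 were higher (36.4%, beside 48.3% of all 16074 sites), with a median log2 ratio of -0.32. In heart, 64 of the 88 lung sites and 103 of the 150 muscle sites were lower in the knockout, with medians of -0.47 and -0.43 beside -0.04 over all sites. Of the liver and kidney sites in heart, 17 of 39 (43.6%) and 7 of 19 (36.8%) were higher, so every list followed in heart lay under 48.3%. In muscle, 8 of 19 liver sites (42.1%), 11 of 21 lung sites (52.4%) and 4 of 17 kidney sites (23.5%) were higher. The part of these lists in the differences above was not tested.

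Mitochondrial RNA formed a large part of every library. It took 22.6% of tags in wild-type heart and 31.3% in knockout heart, and 22.3% in wild-type muscle and 20.2% in knockout muscle. The mitochondrial genome is read as long transcripts from which the transfer RNAs are cut out, and the released messages and ribosomal RNAs receive short poly(A) tails. Windows within 5 nt of the higher-numbered boundary of each annotated gene cover 2.64% of the positions. They held between 76.2% and 85.0% of mitochondrial tags, and ends are named by the gene at that boundary. For a gene of the opposite strand, such as TrnQ, TrnE or ND6, this boundary is the start and not the 3′ end. Of 37 annotated genes, 18 had no tag within 5 nt of this boundary in any of the 4 libraries, COX1, COX2 and COX3 among them. Of these, 12 have it in a single stretch of 4600 nt in which none of the 4 libraries has a tag at all. Cells of every tissue use these genes, so the zeros give no level for them; whether tags from this stretch could be placed was not tested.

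The ends at ribosomal RNA genes were higher in knockout heart and lower in knockout muscle. At the end of mt-Rnr2, the large ribosomal RNA, the level was 5245 CPM in wild-type heart, 13761 in knockout heart, 13346 in wild-type muscle and 7438 in knockout muscle. The knockout was 2.62 times the wild type in heart and 0.557 times in muscle. At the end of mt-Rnr1, the small ribosomal RNA, the ratios were 2.12 and 0.573. The most abundant end outside the messenger RNAs lay on the plus strand at the boundary of TrnQ, a transfer RNA gene encoded on the opposite strand, just before TrnM. It stood at 37713 CPM in wild-type heart, 78306 in knockout heart, 51352 in wild-type muscle and 27191 in knockout muscle. The end of TrnM, the methionine transfer RNA, had ratios of 5.06 and 0.247, and that of TrnS2, a serine transfer RNA, 3.00 and 0.361. Not every end at a transfer RNA gene moved in opposite directions. Tags at the boundary of TrnE, a glutamate transfer RNA gene of the opposite strand, were higher in both knockout libraries. They stood at 2303 and 2900 CPM in heart and 867 and 1081 in muscle. In wild-type heart 99.2% of mitochondrial tags were on the plus strand, so tags here are not shown to be ends of that transfer RNA. TrnI, for isoleucine, had ratios of 2.69 and 15.7, the latter from 23 tags in wild-type and 238 in knockout muscle. TrnT, for threonine, held 31 and 99 tags in heart and 0 and 13 in muscle, wild type before knockout.

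The most abundant messenger RNA ends, those of CYTB, ND4 and ND1, did not follow this pattern. CYTB, a subunit of respiratory complex III, stood at 47438 CPM in wild-type heart, 43159 in knockout heart, 51997 in wild-type muscle and 55565 in knockout muscle. ND4, a subunit of complex I, stood at 40273, 24581, 40483 and 46676 CPM in that order. ND1, of the same complex, was lower in the knockout in both tissues, at 0.717 and 0.727 times the wild type. ND2, another subunit, was higher in both, at 1.79 and 1.21 times. Near the higher-numbered boundary of ND6, a gene of the opposite strand, heart held 68 and 98 tags and muscle 60 and 0, wild type before knockout. Tags at ribosomal RNA ends per tag at the ends of ND1, ND2, ND4 and CYTB came to 0.0620 in wild-type heart, 0.202 in knockout heart, 0.115 in wild-type muscle and 0.0667 in knockout muscle. The knockout value was thus 3.26 times the wild type in heart and 0.578 times in muscle. In the other 4 tissues the same ratio of knockout to wild type was 2.91 in liver, 0.793 in kidney, 0.566 in white fat and 4.19 in lung; the lung value was 0.903 with a window of 10 nt, while those of heart and muscle were the same. With 1 library a side no test was made.

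**Figure D4:**
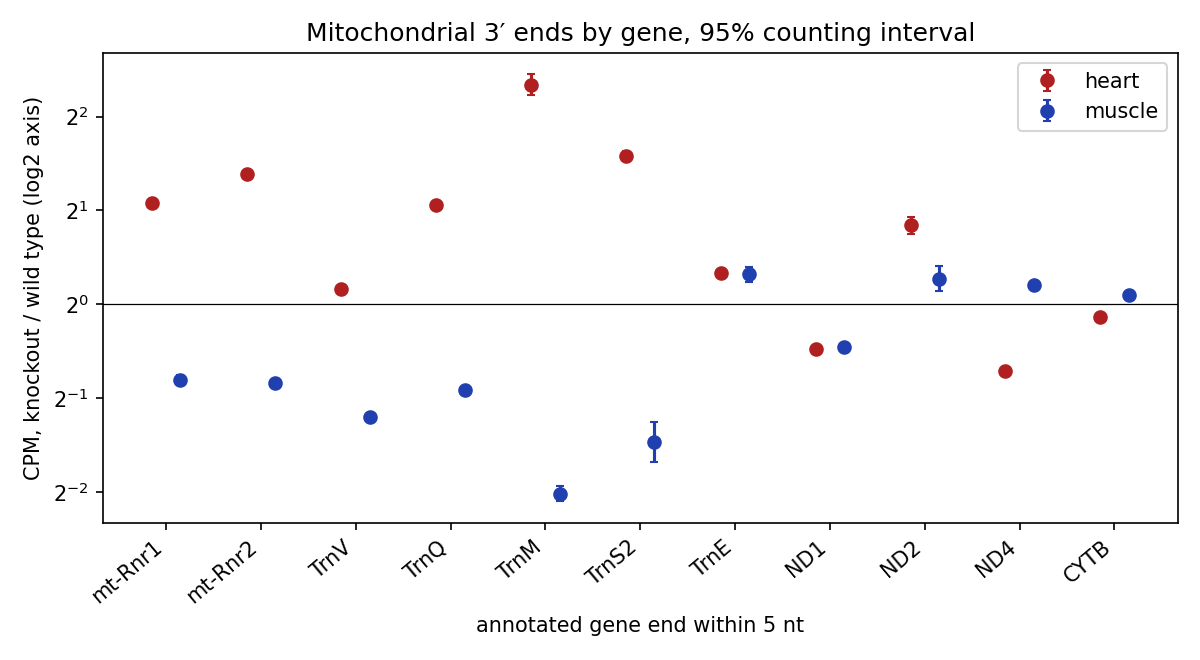
Ratio of knockout to wild-type CPM at 3′ ends within 5 nt of the higher-numbered boundary of each mitochondrial gene, on a log2 axis. Red is heart, blue muscle, and bars are exact 95% counting intervals. For TrnQ and TrnE, genes of the opposite strand, this boundary is the start of the gene. Heart lies above 1 and muscle below it at mt-Rnr1, mt-Rnr2, TrnV, TrnQ, TrnM and TrnS2, while the tissues are close together at ND1 and TrnE.

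Site use was measured in 1838 tandem pairs of neighbouring sites on a strand, 100 to 5000 nt apart with a median of 723.5 nt. Each site held at least 5% of the pair, and each pair at least 20 tags in every library. Pairs were formed by position alone, without gene annotation, so the sites of a pair may belong to different genes. A shift in such a pair would be a difference in abundance between genes. The distal share of a pair is the percent of its tags at the site farther downstream, and library size cancels in it. The median distal share was 49.8% in wild-type heart, 50% in knockout heart, 52.5% in wild-type muscle and 51.4% in knockout muscle. Calls numbered 0 for distal shifts (0%) and 0 for proximal shifts (0%) by edgeR's quasi-likelihood test of distal by genotype, and the unadjusted p was under 0.05 at 68 pairs (3.7%). Shifts of 2-fold in the odds went either way in each tissue. Heart had 276 distal (15%) and 267 proximal shifts (14.5%), and muscle had 249 (13.5%) and 244 (13.3%). In both tissues, 38 pairs had 2-fold distal shifts (2.07%) and 29 proximal ones (1.58%), while 97 pairs went opposite ways. The shifts of the tissues had a Pearson correlation of -0.07 across pairs, which is a description of these libraries.

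**Figure D5:**
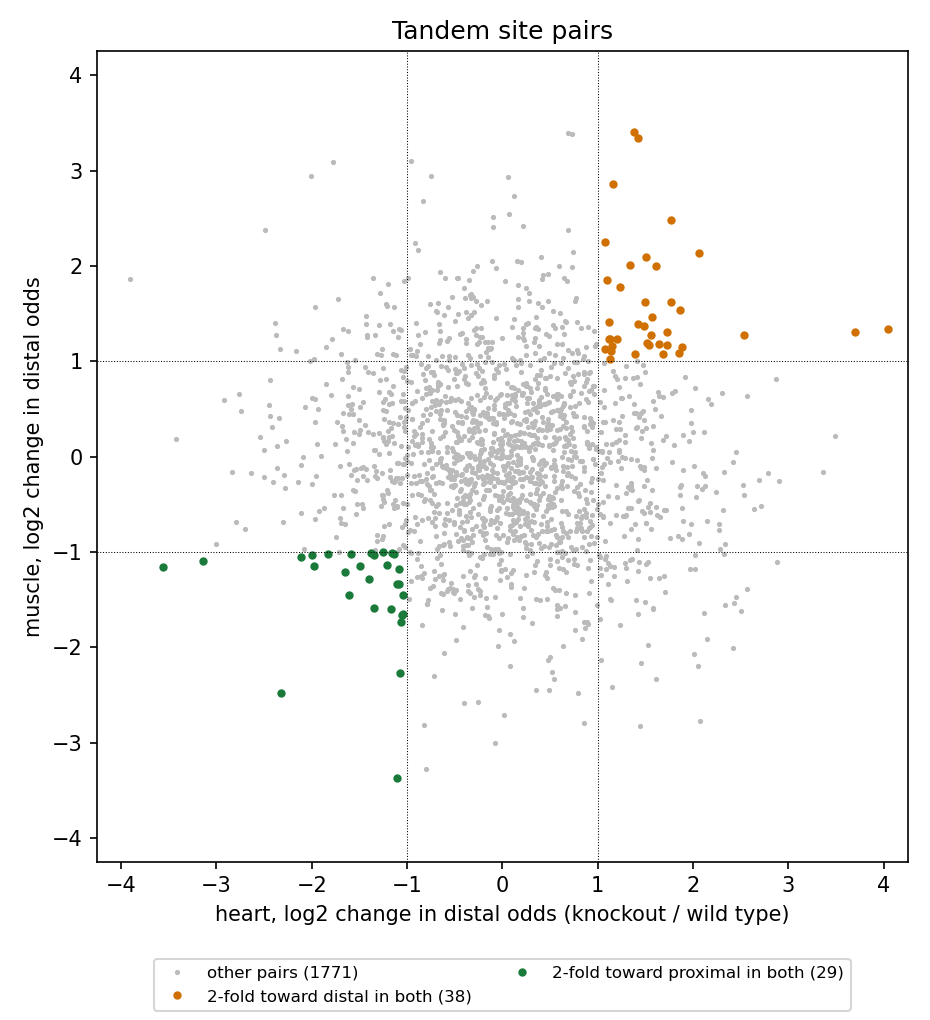
Log2 change in the odds of the distal site, knockout against wild type, in heart (horizontal) and muscle (vertical) for the 1838 tandem pairs; dotted lines mark 2-fold. The cloud is centred near 0 on both axes, with 38 pairs in the upper right and 29 in the lower left beyond 2-fold.

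The pair of smallest p was formed by plus-strand sites of chromosome 2 at 71740039 and, 1858 nt downstream, 71741897. Its distal share was 87.7% in wild-type heart, 58.5% in knockout heart, 91.5% in wild-type muscle and 65.3% in knockout muscle. Both knockout libraries were lower, the unadjusted p of the edgeR fit was 0.000957 and the adjusted p was 1. On the minus strand of chromosome 3, the site at 103543740 took the distal share of the pair it forms with 103544079, which lies 339 nt upstream. That share was 27.1% in wild-type heart, 61.5% in knockout heart, 45.6% in wild-type muscle and 79.5% in knockout muscle, with an unadjusted p of 0.00329 in the edgeR fit. The same middle site also gained on the next one downstream in that fit, where the distal share was 68.3%, 54.5%, 65.8% and 20.5% in that order. Both pairs use the tags of the middle site, so they are not separate observations, and neither was called. In knockout muscle the first pair held 8 and 31 tags and the second 31 and 8, proximal before distal.

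Other pairs showed the direction in both tissues with unequal size. On the plus strand of chromosome 4, the pair at 106112244 and 106113929 had a distal share of 36.7% in wild-type heart, 60.9% in knockout heart, 13.0% in wild-type muscle and 62.7% in knockout muscle. On the same strand, the pair at 48686371 and 48688836 had 65.7%, 13.4%, 53.3% and 33.3% in that order. On the plus strand of chromosome 16, the pair at 20123310 and 20125536 had 83.1%, 94.4%, 56.5% and 88.5%. The edgeR adjusted p of each was 1, so none of these shifts passed the test.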

How the data were processed

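The deposited lists give, per library, poly(A) sites with strand and estimated counts of tags that the authors did not scale; between 1.26% and 5.50% of the sites of these 4 libraries have a fractional value. Base calling with CASAVA 1.7 and alignment with Bowtie to mm9 are given per the submitters' processing notes; the grouping of tags is not stated there. Touching intervals were merged, and summed tags rounded. Sites were kept by filterByExpr (minimum count 10), scaled by TMM, and fitted in R 4.3.3 with edgeR 4.0.16 (DESeq2 1.42.0 as alternative) with terms for tissue and genotype, after tests on simulated data. With 1 residual degree of freedom, edgeR took the spread from the trend over sites (infinite prior degrees of freedom, biological coefficient of variation 0.327). Pairing is by tissue; no record ties libraries to an animal. The 12-library fits had 4 residual degrees of freedom, or 3 with heart and muscle separate.

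Named sites are those of smallest p among calls (up to 10 a direction, and all 12 calls here), filled to 5 where fewer were called, those with the largest smaller ratio over both tissues, those apart in 1 tissue, opposite ones, the 8 most abundant, and pairs likewise. Named values were chosen within these sets to show each kind. The members, lists and rules were chosen with earlier results of these data known. Gene lists were not used, since no mm9 annotation was used here. RefSeq (GRCm38.p6) gave miRNA sequences and mitochondrial gene boundaries only. The window of 5 nt, the grouping of mitochondrial ends, the tissue lists and the correlations of tissue pairs were set after seeing the data.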

Additional observations from a re-analysis of the deposited data

Results flagged for a closer look

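The test of the genotype difference in heart minus that in muscle singled out 4 sites in the 12 tissue libraries (edgeR adjusted p under 0.05). The log2 difference was -5.68 at chr5:122556648-122556960, -7.08 at chr5:136365404-136365437, 5.20 at chr7:119259536-119259574 and -6.39 at chr9:110672137-110672332. By DESeq2 only chr7:119259536-119259574 of these 4 was called, and without a filter on low counts only chr9:110672137-110672332 (edgeR adjusted p = 0.0237). Heart and muscle each gave 1 library per genotype, so the error came from the other tissues and the trend over sites. The test of heart and muscle against the other 4 tissues singled out chr8:72709455-72709490, with a log2 difference of -4.76. That call was lost with DESeq2 (adjusted p = 0.588) and without a filter (edgeR adjusted p = 0.114).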

How the results depend on the processing

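The genotype test gave 12 higher and 0 lower sites, against 4 and 0 by DESeq2, 23 and 0 by total-count scaling, 7 and 1 without a filter, 6 and 0 with 12 libraries, and 0 and 0 without the replicate block (no term for tissue). Leaving out 1 heart or muscle library from the 12-library fit leaves the genotype difference to the other of these tissues, 1 library against 1. Calls of those fits are therefore not counted here. The heart-minus-muscle test (1 positive, 3 negative) gave 40 and 15 by DESeq2, and 0 and 1 without a filter. The test against other tissues (0 and 1) gave 0 negative calls by DESeq2 and without a filter, and 3 to 5 positive and 1 to 2 negative with a library left out. At a minimum of 10 CPM, sites 2-fold higher numbered 533 in heart, 265 in muscle and 23 in both, 31 were lower in both, and opposite sites numbered 71 and 37. At 50 CPM the counts were 94 higher and 177 lower in heart, 40 and 180 in muscle, 3 and 7 in both, and 10 and 2 opposite. Total-count scaling gave 487 higher and 166 lower in heart, 187 lower in muscle, 4 lower in both and 12 lower in heart and higher in muscle. A pair minimum of 50 tags gave 1 proximal call and 0 distal. With each site at 10% of a pair, median distal shares were 48.72%, 49.48%, 52.08% and 50.55% in wild-type heart, knockout heart, wild-type muscle and knockout muscle. Over tested sites the mitochondrial shares were 23.4%, 32.4%, 22.8% and 20.8% in that order. The cause of these changes was not tested. No log2 difference at the named sites of the genotype test reversed under these alternatives; chr11:67010982-67011013 has no value without muscle libraries, since heart holds 0 tags there. The 7 rare called sites lost their call in the full 12-library fit. With a heart library left out of that fit, which leaves muscle alone, the log2 difference was 2.83 at chr11:75280118 and 2.17 at chr10:59412417. With a muscle library left out, which leaves heart alone, it was 3.54 at chr11:75284322 and 3.27 at chr10:59412417.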
